A study of Mus musculus with 20 samples.

Results

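The genes described here were listed for marking the duct epithelium of the pancreas or moving ions and water across it. The list held Krt19, Krt7, Spp1, Muc1, Cftr, Slc4a4, Slc26a9, Car2 and Cldn10. They were taken by symbol from the array's probe table, and each was read from its single-symbol probe set. Of the 9 genes listed, 8 had such a probe set, among 30063 genes on the array, and Spp1 was not analysed here. A filter for signal, which asked for a value above the array's median on at least 4 arrays, was passed by 7 of them and by 17993 genes in all. Cftr did not pass it. All values are log2 signals, so a step of 1 is a doubling.

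The study compared whole pancreas of mice lacking inceptor (Iir -/-) with wild-type controls (Iir +/+), all C57BL/6J, at embryonic day 18.5 (E18.5) and on the day of birth (P0). There were 4 wild-type and 5 knockout arrays at E18.5, and 5 wild-type and 6 knockout arrays at P0. Mothers were starved for 2 h before embryos were dissected, and P0 pups for 5 h, and the running sample numbers also fell into 1 block per age, so age, fasting and running number cannot be told apart. Sex was not determined. Nothing in the labels says that each array is a separate animal, and the p-values therefore measure the spread between these samples. Inceptor, encoded by Elapor1, is a transmembrane protein that restrains insulin receptor signalling, and the aim was to see what its loss changes around birth.

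Array medians lay between 4.81 and 4.94, and the lowest correlation between any pair of arrays over all probe sets was 0.979. Elapor1 read 5.58 to 6.50 on the 11 knockout arrays and 11.07 to 12.06 on the 9 wild-type arrays, without overlap. Markers of pancreas were present throughout: the mean of 10 acinar genes was 14.51 to 15.56 and that of 10 islet genes 10.54 to 11.46 over the 20 arrays. Of the acinar genes 4 (Cel, Cela3b, Ctrb1 and Pnliprp1) stood at the highest deposited value on all 20 arrays, so their differences cannot be read, and none of the genes described here reached it. Markers of neighbouring organs were uneven between arrays. Tff3, a trefoil peptide of goblet cells, reached 13.34 to 15.22 on 3 of the E18.5 arrays (wild type 4, knockout 1 and knockout 4), and 5.93 to 9.10 on the other 17 arrays. Fabp2, the fatty acid binding protein of enterocytes, reached 18.78 on E18.5 knockout 2, 13.76 on E18.5 wild type 4 and 12.09 on P0 knockout 6. The arrays rich in gut markers are, below, these 3 arrays rich in Tff3 together with E18.5 knockout 2. The remaining arrays are not free of gut markers. Besides P0 knockout 6, Fabp2 read 10.73 on E18.5 knockout 3 and 9.83 on E18.5 wild type 2, above the 8.07 on E18.5 knockout 1. Results that rest on these arrays are given with and without them. Without the 3 arrays, E18.5 knockouts 2, 3 and 5 remain, and without the 4 arrays only knockouts 3 and 5, each time beside wild types 1 to 3. With so few arrays, whether a call was lost through gut tissue or through the smaller sample cannot be told apart. The mean of 13 liver genes, a tissue that adjoins the pancreas, also varied widely, from 6.88 to 12.92.

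Pancreatic ducts carry digestive enzymes to the gut and add a fluid rich in bicarbonate. Carbonic anhydrases such as Car2 make bicarbonate in the cell, the sodium bicarbonate cotransporter Slc4a4 brings it in from the blood side, and the chloride channel Cftr works with anion exchangers of the Slc26 family to release it into the lumen. Krt19 and Krt7 are keratins of simple epithelia, Muc1 is a membrane mucin of the apical surface, and Cldn10 is a claudin of the tight junction that forms pores selective for ions. In whole tissue, fewer cells of a type and less RNA per cell cannot be told apart, and ducts are a small part of the pancreas. Which cells gave the signals of these genes, duct cells or others, was not tested.

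The promoters of Slc26a9, Cldn10 and Muc1 are shown because these 3 genes were called lower across birth in knockouts, the first and second of them also in wild type. No binding was measured, and the deviations of these genes from their group means correlated weakly with each other over the 20 arrays (0.33 for Muc1 with Slc26a9, 0.24 for Slc26a9 with Cldn10 and 0.06 for Muc1 with Cldn10). The sequences are from RefSeq (GRCm38.p6, plus strand) and run from 250 bases before a start to 50 bases after it. Capitals mark matches, on either strand, to the TATA box (searched as TATAAA), the CCAAT box (searched by that name), the GC box (GGGCGG), an RBPJ-type motif (TGGGAA), a forkhead-type motif (TGTTTAC) or an HNF1-type motif (GTTAAT). Slc26a9 lies at chr1:131743772-131744071, the starts of Cldn10 at chr14:118787621-118787920 and chr14:118854700-118854999, and Muc1 at chr3:89228806-89229105.
Slc26a9: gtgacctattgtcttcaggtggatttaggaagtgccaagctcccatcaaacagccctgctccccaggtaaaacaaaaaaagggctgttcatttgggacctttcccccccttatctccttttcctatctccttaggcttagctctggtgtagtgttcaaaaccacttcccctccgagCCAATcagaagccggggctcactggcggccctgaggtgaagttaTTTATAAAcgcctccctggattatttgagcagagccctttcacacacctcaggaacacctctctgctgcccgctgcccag
Cldn10 start 1: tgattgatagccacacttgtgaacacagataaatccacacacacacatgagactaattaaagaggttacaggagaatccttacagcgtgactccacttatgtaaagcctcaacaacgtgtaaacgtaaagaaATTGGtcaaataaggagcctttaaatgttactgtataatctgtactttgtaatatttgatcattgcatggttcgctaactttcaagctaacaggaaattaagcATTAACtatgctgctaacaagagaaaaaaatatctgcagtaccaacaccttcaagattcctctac
Cldn10 start 2: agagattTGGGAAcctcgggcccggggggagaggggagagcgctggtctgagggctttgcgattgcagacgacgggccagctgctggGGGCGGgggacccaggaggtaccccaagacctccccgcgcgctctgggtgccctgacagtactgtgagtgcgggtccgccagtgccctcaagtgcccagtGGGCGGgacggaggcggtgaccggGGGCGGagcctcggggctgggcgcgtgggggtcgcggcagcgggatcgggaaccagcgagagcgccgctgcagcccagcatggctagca
Muc1: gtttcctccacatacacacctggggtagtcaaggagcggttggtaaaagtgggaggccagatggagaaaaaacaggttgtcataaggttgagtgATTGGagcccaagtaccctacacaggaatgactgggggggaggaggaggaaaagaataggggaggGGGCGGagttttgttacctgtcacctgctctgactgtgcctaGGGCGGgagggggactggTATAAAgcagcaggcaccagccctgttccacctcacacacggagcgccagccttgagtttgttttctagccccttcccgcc

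A TATA match sat 31 bases before the start of Muc1 and 28 bases before that of Slc26a9, where a second match on the other strand overlaps it. Slc26a9, Muc1 and the first start of Cldn10 also held a CCAAT match, while the second start of Cldn10 held 3 GC boxes and an RBPJ-type match. The first start of Cldn10 held an HNF1-type match, and Muc1 held 2 GC boxes. Among 32851 promoters of this length, 13.6% held the TATA box on either strand, 37.4% the CCAAT box, 35.7% the GC box, 25.6% the RBPJ-type motif, 7.1% the HNF1-type motif and 3.65% the forkhead-type motif. A match is a run of letters, not a measured site. The single Cldn10 value was not divided between the starts.

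Across birth, the comparison of P0 with E18.5 asked how the genes change as the pancreas passes from fetal to newborn life. Slc26a9 and Cldn10 fell in both genotypes, Muc1 fell in knockouts, and Slc4a4 rose by a small amount in knockouts. By limma's moderated test with Benjamini-Hochberg adjustment over all tested genes, 2 of the 7 genes were called in wild type, both lower, where 8.86% of all genes were called, 4.10% lower and 4.76% higher. In knockouts 4 of 7 were called, 3 lower and 1 higher, where 23.0% of all genes were called, 11.7% lower and 11.3% higher. The median difference of the 7 genes was -0.14 in wild type and -0.94 in knockouts, against 0.01 and -0.00 over all genes tested. The knockout median is the difference of Car2, which was not called (limma adjusted p = 0.215). Car2 was at 0.092 without the 4 arrays rich in gut markers, so that median is not steady. Groups did not overlap for 2 of 7 genes in wild type, both lower, against 11.6% of all genes (5.36% lower, 6.24% higher). In knockouts they did not overlap for 3 of 7, all lower, against 12.4% of all genes (6.55% lower, 5.90% higher).

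**Figure D1:**
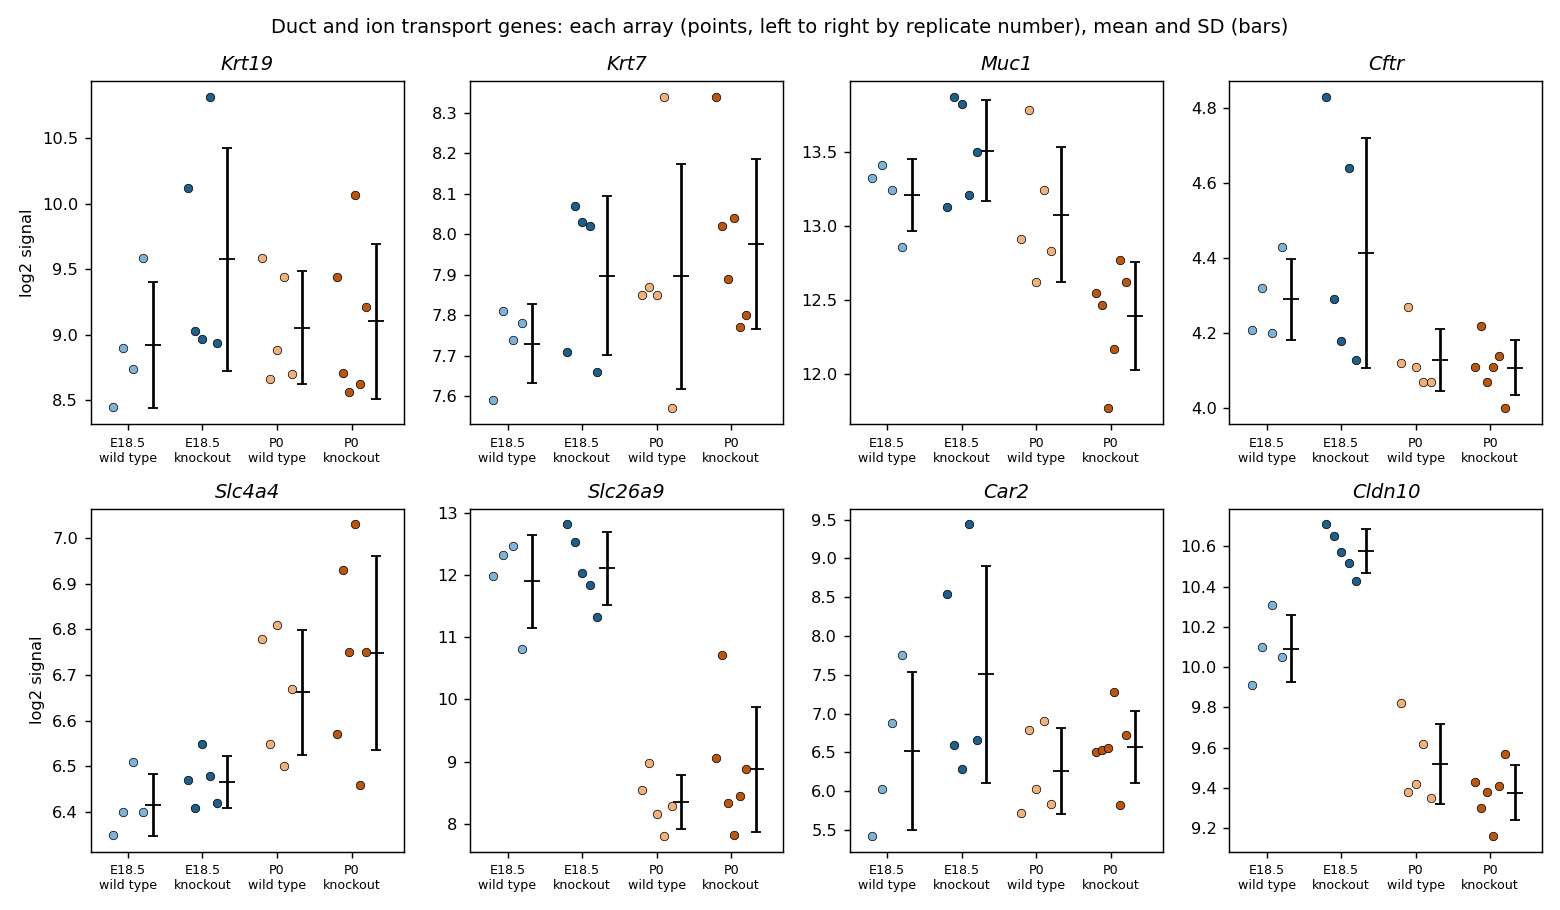
Log2 signal of the 8 genes with a probe set on each of the 20 arrays (vertical axis, a different range for each gene), by age and genotype. Bars give the mean and SD of each group; Slc26a9 and Cldn10 sit lower at P0 than at E18.5 on every array, whereas Krt19 and Car2 have their highest values on single E18.5 arrays.

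Slc26a9, which carries chloride and bicarbonate across epithelial membranes, showed the largest change of the 7 genes. The E18.5 wild-type arrays 1 to 4 read 11.99, 12.33, 12.47 and 10.82, and the E18.5 knockouts 1 to 5 read 12.82, 12.53, 12.03, 11.85 and 11.33. The P0 wild-type arrays 1 to 5 read 8.54, 8.97, 8.15, 7.80 and 8.29, and the P0 knockouts ran from 7.82 to 10.72 with a median of 8.66. Every P0 array lay below every E18.5 array, and P0 knockout 2, at 10.72, came closest. In wild type the level fell by 3.55 ± 0.47 (SE) on the log2 scale, 11.7-fold (limma adjusted p = 0.000438, lower in 5 of 5 arrays). In knockouts it fell by 3.24 ± 0.43, 9.43-fold (limma adjusted p = 8.4e-05, lower in 6 of 6 arrays). Both calls held in 37 of 37 other settings, some of which can change only the p-value and not the difference.

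Slc26a9 is also a chloride transporter of the stomach lining, so the stomach list was set beside it. Of 9 stomach genes 3 passed the filter (Atp4a, Ctse and Gast), and Gkn1, Gkn2, Gkn3, Atp4b, Cblif and Pgc did not. Their mean was 5.75 to 6.41 at E18.5 and 5.71 to 6.22 at P0, and the ages overlapped. With that mean in the model, Slc26a9 fell by 3.67 in wild type (limma adjusted p = 0.000305) and fell by 2.93 in knockouts (limma adjusted p = 0.000474). Atp4a and Ctse had group means of 5.06 to 5.75, not far above the array medians. A mean that overlaps between the ages can take up little of a change with age, so the part of stomach tissue was not tested.

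Of the 4 acinar transcription factors on the acinar list, 3 were called lower over the same interval. Ptf1a fell by 3.02 ± 0.58 in wild type (limma adjusted p = 0.00495) and 7.99-fold in knockouts (limma adjusted p = 0.000714). Bhlha15 was also called lower, at -1.79 ± 0.33 in wild type and -1.90 ± 0.30 in knockouts, as was Rbpjl, at -1.26 ± 0.32 and -2.61 ± 0.29. The other, Nr5a2, was not called, at 0.35 ± 0.15 in wild type (limma adjusted p = 0.165) and -0.36 ± 0.14 in knockouts (limma adjusted p = 0.0666). Gp2, the zymogen granule membrane protein, rose by 4.10 ± 0.75 and 4.01 ± 0.68. In each genotype the acinar list thus held 1 gene called higher and 3 called lower of 10. Of all genes, 8.86% were called in wild type and 23.0% in knockouts. The acinar medians were 0.00 and -0.02 and include the 4 genes at the highest deposited value. P0 knockout 2, the P0 array highest in Slc26a9, was also the P0 array highest in Ptf1a, at 11.33 against 7.40 to 9.29 on the other P0 arrays. Over the 20 arrays, deviations of Slc26a9 from its group means correlated with those of Ptf1a at 0.60, of Bhlha15 at 0.64, of Rbpjl at 0.16 and of Gp2 at -0.37. P0 knockout 2 lay farthest above its group mean in both Slc26a9 (mean 8.87) and Ptf1a (mean 9.09). The coefficient with Ptf1a therefore leans on that array, and it was not computed without it. The arrays share extraction and normalisation, so these coefficients are descriptions, and the part of acinar cells in the fall was not tested.

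Cldn10, the claudin, fell in both genotypes with little spread inside groups. The E18.5 wild-type arrays 1 to 4 read 9.91, 10.10, 10.31 and 10.05, and the E18.5 knockouts 1 to 5 read 10.71, 10.65, 10.57, 10.52 and 10.43. At P0 the wild-type arrays 1 to 5 read 9.82, 9.38, 9.42, 9.62 and 9.35, and the knockouts ran from 9.16 to 9.57 with a median of 9.40. Neither genotype's P0 arrays overlapped its E18.5 arrays, and the E18.5 knockouts were the highest group. The level fell by 0.58 ± 0.10 in wild type, 1.49-fold (limma adjusted p = 0.00364, lower in 5 of 5 arrays). In knockouts it fell by 1.20 ± 0.09, 2.29-fold (limma adjusted p = 1.08e-06, lower in 6 of 6 arrays). Both calls held in 37 of 37 other settings.

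Muc1, the apical mucin, was called across birth in knockouts. The E18.5 knockouts 1 to 5 read 13.13, 13.87, 13.82, 13.21 and 13.50, and the P0 knockouts ran from 11.77 to 12.77 with a median of 12.51. These groups did not overlap, and the level fell by 1.11 ± 0.21, 2.16-fold (limma adjusted p = 0.0011, lower in 6 of 6 arrays). In wild type the E18.5 arrays 1 to 4 read 13.32, 13.41, 13.24 and 12.86, and the P0 arrays 1 to 5 read 12.91, 13.78, 12.62, 13.24 and 12.83. These groups overlapped, with P0 wild type 2 second only to E18.5 knockouts 2 and 3 among all arrays. The wild-type difference was -0.14 ± 0.23 (95% interval -0.62 to 0.35, limma adjusted p = 0.782). The call in knockouts held in 37 of 37 other settings, at a limma adjusted p of up to 0.0346, and the difference was -1.34 without the 3 arrays rich in Tff3 and -1.27 without the 4 arrays rich in gut markers.

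Slc4a4, the cotransporter of the blood side, had a small difference. The E18.5 arrays read 6.35 to 6.51 in wild type and 6.41 to 6.55 in knockouts. The P0 wild-type arrays 1 to 5 read 6.78, 6.55, 6.81, 6.50 and 6.67, and the P0 knockouts ran from 6.46 to 7.03 with a median of 6.75. All 5 P0 wild-type arrays lay above the E18.5 wild-type mean, but the groups overlapped in both genotypes, through P0 wild type 4 and P0 knockout 5. In knockouts the level rose by 0.28 ± 0.09, 1.22-fold (limma adjusted p = 0.0271, higher in 5 of 6 arrays). The wild-type difference was 0.25 ± 0.10 (95% interval 0.04 to 0.45, limma adjusted p = 0.123). The call in knockouts was lost in 13 of 37 other settings, among them leaving out E18.5 knockout 2, E18.5 knockout 5, P0 knockout 2 or P0 knockout 4, each by itself (adjusted p = 0.0529 to 0.0626).

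**Figure D2:**
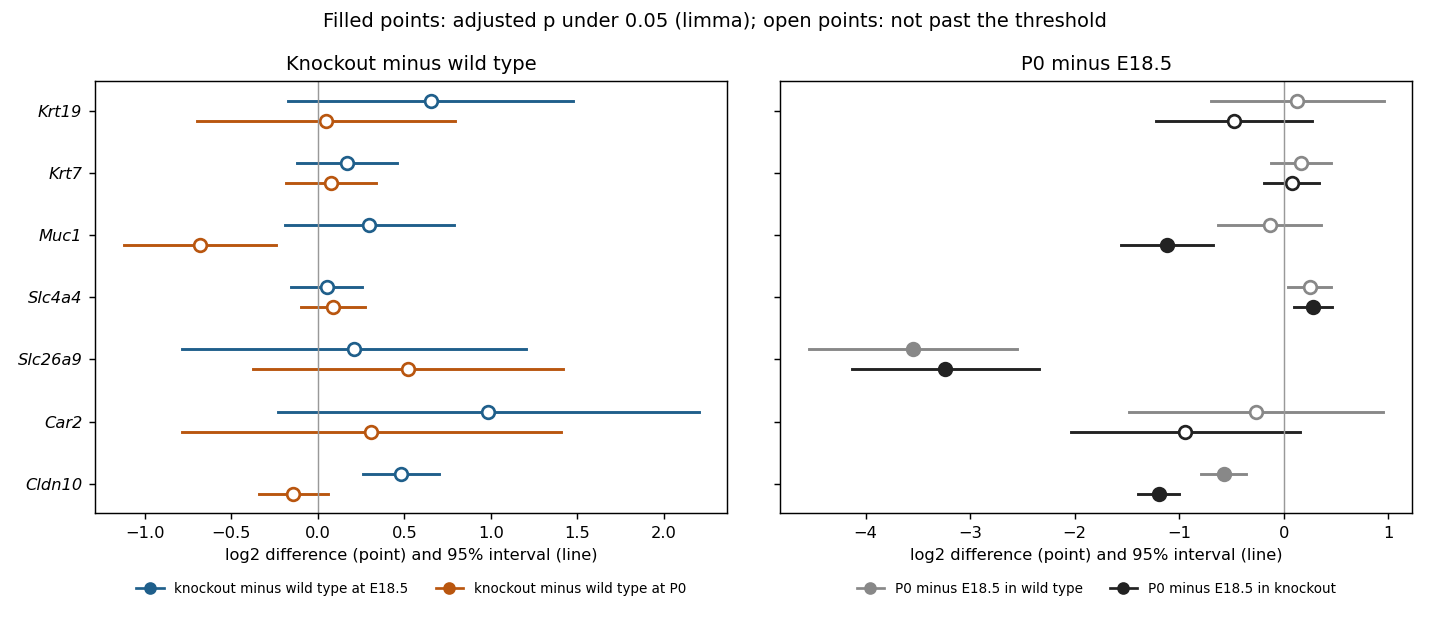
Log2 difference with its 95% interval (horizontal axis) for the 7 tested genes (rows), between genotypes at each age (left) and between ages in each genotype (right). Filled points passed limma's adjusted p threshold of 0.05; they are the falls of Slc26a9 and Cldn10 in both genotypes and, in knockouts alone, the fall of Muc1 and the rise of Slc4a4.

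The duct keratins did not pass the test across birth. Krt7 lay between 7.57 and 8.34 on all 20 arrays, and its differences were 0.17 ± 0.14 in wild type (95% interval -0.12 to 0.46) and 0.08 ± 0.12 in knockouts (-0.18 to 0.34). Krt19 read 8.45, 8.90, 8.74 and 9.59 on E18.5 wild types 1 to 4, and 10.12, 9.03, 8.97, 10.82 and 8.94 on E18.5 knockouts 1 to 5. At P0 it read 9.59, 8.66, 8.88, 9.44 and 8.70 on wild types 1 to 5, and 8.56 to 10.07 on knockouts with a median of 8.96. All 4 groups overlapped, and E18.5 knockouts 1 and 4 stood out on the high side. The differences between ages were 0.13 ± 0.39 in wild type (limma adjusted p = 0.89) and -0.47 ± 0.36 in knockouts (limma adjusted p = 0.374).

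Car2, a cytosolic carbonic anhydrase, had its highest values on the same arrays as Krt19 at E18.5. It read 5.42, 6.03, 6.88 and 7.76 on E18.5 wild types 1 to 4 and 8.54, 6.60, 6.29, 9.44 and 6.66 on E18.5 knockouts 1 to 5. At P0 it read 5.72, 6.79, 6.03, 6.91 and 5.84 on wild types 1 to 5, and 5.82 to 7.28 on knockouts with a median of 6.54. The groups overlapped, and the differences between ages were -0.26 ± 0.58 in wild type (limma adjusted p = 0.836) and -0.94 ± 0.52 in knockouts (limma adjusted p = 0.215). Deviations of Krt19 and Car2 from their group means correlated at 0.78 over the 20 arrays, the closest of the 21 pairs among the 7 genes.

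The 3 arrays highest in Krt19 and Car2 at E18.5 were the 3 rich in Tff3. Lgals4, a galectin of the gut lining, read 8.79 on E18.5 knockout 1, 9.98 on E18.5 knockout 4 and 8.19 on E18.5 wild type 4. On E18.5 knockout 2 it read 7.87, and on the other 5 E18.5 arrays 5.37 to 5.82. Cdh17, a cadherin of the intestine, read 5.17, 5.90 and 4.9 on those 3 arrays, 5.26 on E18.5 knockout 2 and 3.89 to 4.04 on the other 5 E18.5 arrays. The 4 E18.5 arrays highest in Lgals4 were, in the same order, the 4 highest in Krt19, and the first 3 of them were in the same order the 3 highest in Car2. On E18.5 knockout 2 Krt19 (9.03) and Car2 (6.60) were close to the highest of the other 5 E18.5 arrays, at 8.97 and 6.88. The arrays fall into separate clusters of Lgals4, none with 6 arrays, so the relation cannot be tested within one and no coefficient is given. The part of gut tissue in the Krt19 and Car2 values was not tested. Without the 3 arrays the difference between ages in knockouts was 0.12 for Krt19 and 0.05 for Car2, on the other side of 0 from the full set.

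**Figure D3:**
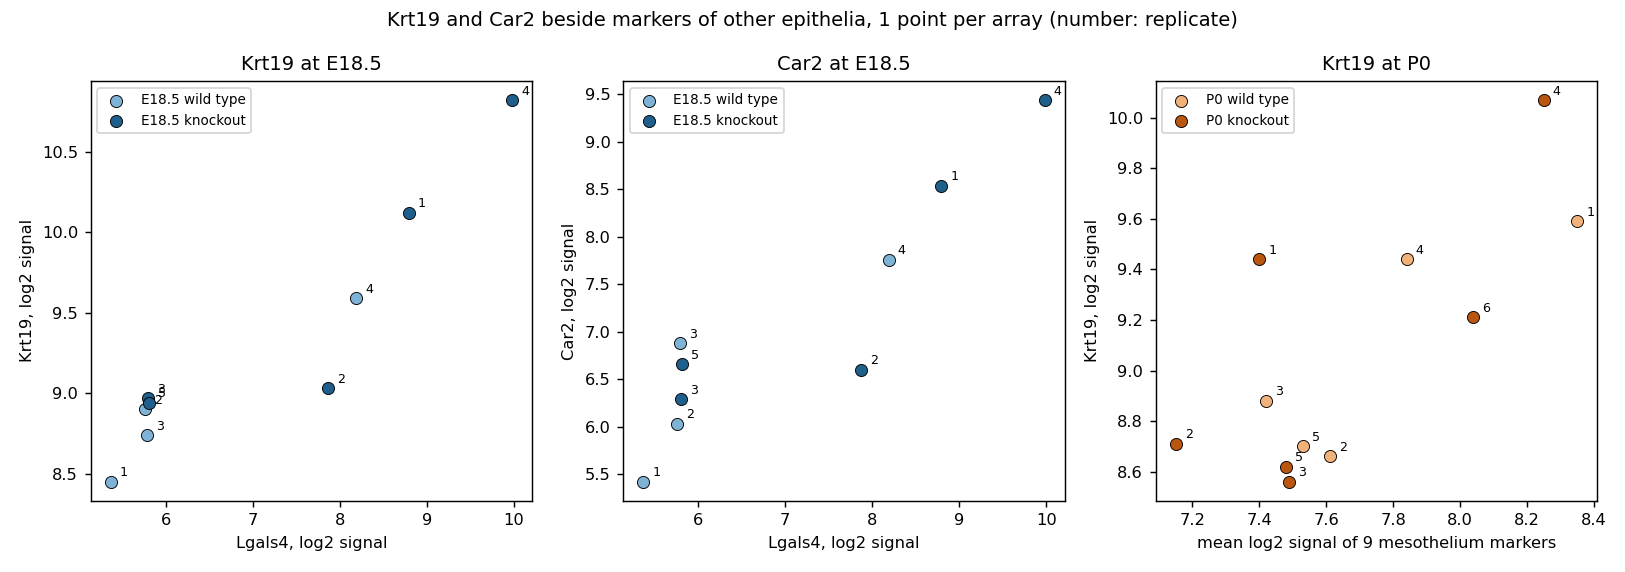
Log2 signal of Krt19 and Car2 (vertical axes) against Lgals4, a galectin of the gut lining, on the 9 E18.5 arrays, and of Krt19 against the mean of 9 mesothelium genes on the 11 P0 arrays; numbers are replicates. The 3 arrays rich in Tff3 (wild type 4, knockouts 1 and 4) are highest in Lgals4 and in both genes, and E18.5 knockout 2, the fourth in Lgals4, reads 9.03 in Krt19 and 6.60 in Car2, close to the other 5 arrays.

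At P0 the highest Krt19 values were on P0 knockout 4 (10.07) and P0 wild type 1 (9.59). Mesothelium, the keratin-rich sheet that covers the organ, had its highest marker means on the same arrays, at 8.25 and 8.35 against 7.15 to 8.04 elsewhere at P0. Over the 11 P0 arrays Krt19 and that mean gave r = 0.75 and rho = 0.51 (permutation p = 0.00746 and 0.114; adjusted over 16 relations the first was 0.119), and r was 0.46 without those arrays. The relation rests on those arrays. P0 knockout 4 was also the P0 array highest in skeletal muscle markers, with a mean of 8.80.

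Cftr lay below the array median on all 20 arrays, from 4.0 to 4.83, and was not tested. Its highest values were 4.83 and 4.64, again on E18.5 knockouts 1 and 4, followed by 4.43 on E18.5 wild type 4. On the P0 arrays it read 4.0 to 4.27. A signal this low gives no measure of the channel's level in duct cells.

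The comparison of knockout with wild type asked what inceptor loss did to these genes at each age. None of the 7 was called at E18.5 or at P0, where 0.0111% of all tested genes were called at each age. At E18.5 all 7 differences were above 0, as were 10112 of all 17993 genes, with a median of 0.30 against 0.02 over all genes tested. The 7 genes were read on the same arrays, so their signs are not separate measurements. At P0 5 of 7 were above 0, as were 9246 of all genes, with a median of 0.08 against 0.01 over all genes. An unadjusted p under 0.05 was reached by 1 of the 7 genes at each age, Cldn10 at E18.5 and Muc1 at P0, against 980 and 1576 of all 17993 genes. The difference between genotypes did not pass the test of a change with age for any of the 7 genes, nor for any other gene (0.00% called by limma). An unadjusted p under 0.05 for that change was reached by 2 of the 7 genes, Cldn10 and Muc1, and by 1256 of all genes.

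Cldn10 at E18.5 was the 1 gene of the 7 whose genotypes did not overlap, where 2.45% of all genes did not (1.74% higher, 0.706% lower). All 5 knockouts, from 10.43 to 10.71, lay above all 4 wild types, from 9.91 to 10.31. The difference was 0.48 ± 0.10 (95% interval 0.26 to 0.70), 1.4-fold, with a limma adjusted p = 0.491, which misses the threshold, and 0.172 to 1 over the other settings. At P0 it was -0.14 ± 0.09 (95% interval -0.34 to 0.06), lower in 5 of 6 knockouts. The change of the genotype difference between the ages was -0.62 ± 0.14 (limma adjusted p = 0.261). The E18.5 knockouts enter both this comparison and the fall across birth in knockouts, so the larger fall there and the higher start are not separate measurements.

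Muc1 at P0 was lower in 6 of 6 knockouts than the wild-type mean. The difference was -0.68 ± 0.21 (95% interval -1.12 to -0.24), 1.6-fold, with a limma adjusted p = 0.406, and 0.205 to 0.796 over the other settings. The P0 groups overlapped, since knockout 5 (12.77) and wild type 3 (12.62) crossed. At E18.5 the difference was 0.30 ± 0.23, and the change between the ages was -0.98 ± 0.31 (limma adjusted p = 0.585). The fall across birth that was called in knockouts and not in wild type is therefore not shown to differ between them.

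Liver markers also stood higher in P0 knockouts, without a call. Their mean was 8.87 to 12.92 on the P0 knockouts and 6.88 to 11.22 on the P0 wild types, and 13 of 13 liver genes lay above 0, with a median difference of 1.55. By limma 0 of the 13 were called at P0, where 2 had an unadjusted p under 0.05, as did 1576 of all 17993 genes. With the liver mean in the model, the P0 difference was -0.66 for Muc1 (limma adjusted p = 0.54) and -0.15 for Cldn10 (limma adjusted p = 0.732).

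For the other genes the intervals set how large a genotype difference could be. Car2 differed by 0.99 ± 0.58 at E18.5 (95% interval -0.23 to 2.20) and Krt19 by 0.65 ± 0.39 (-0.17 to 1.48), and E18.5 knockouts 1 and 4 were the highest knockouts in both. Without the 3 arrays rich in Tff3 the differences were 0.41 for Car2 and 0.28 for Krt19, without the 4 arrays rich in gut markers 0.37 and 0.26, and without E18.5 knockout 4 alone 0.50 and 0.34, none of them called. Slc26a9 differed by 0.21 ± 0.47 at E18.5 and 0.52 ± 0.43 at P0, with intervals of -0.79 to 1.20 and -0.38 to 1.42. Slc4a4 had the narrowest intervals of these 5 genes, -0.15 to 0.26 at E18.5 and -0.10 to 0.27 at P0. Krt7 had intervals of -0.12 to 0.46 and -0.18 to 0.34.

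The 8 genes with a probe set were also set against the mean of 7 intestinal markers on each array (Vil1, Cdx2, Fabp2, Lgals4, Gpa33, Krt20 and Apoa4). This mean orders the arrays otherwise than Lgals4 does: E18.5 knockout 1, second in Lgals4, had a mean of 6.43, so the coefficients do not stand for Lgals4. Of the 15 intestinal genes with a probe set, the other 8 (Cdx1, Alpi, Sis, Lct, Cdh17, Isx, Slc15a1 and Mep1a) were below the filter. The mean ran from 5.84 to 7.85 on E18.5 wild types, 6.03 to 8.79 on E18.5 knockouts, 5.40 to 6.48 on P0 wild types and 5.46 to 6.56 on P0 knockouts. Within each age, none of 16 relations passed by permutation after Benjamini-Hochberg adjustment. The smallest p belonged to Muc1 at P0 (r = 0.69, rho = 0.61, permutation p = 0.0158 and 0.052, adjusted p = 0.214, 11 arrays), with r = 0.89 without the 2 arrays farthest from the median. Krt7 at E18.5 gave r = 0.71 and rho = 0.77 over 9 arrays (exact permutation p = 0.0316 and 0.0214, adjusted p = 0.214), and r = 0.82 without the 2 farthest. Krt19 at E18.5 gave r = 0.26 and rho = 0.63 (exact permutation p = 0.508 and 0.076, adjusted p = 0.896). Slc4a4 at P0 gave r = -0.63 and rho = -0.66 over 11 arrays (permutation p = 0.0401 and 0.0305, adjusted p = 0.214), and r = -0.78 without the 2 farthest.

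Krt20, a keratin of surface epithelia in that list, ran from 5.72 to 13.92 over the 20 arrays. Without Krt20 and Vil1 in the list, Muc1 at P0 gave r = 0.07 (rho = 0.34, permutation p = 0.761 and 0.303, adjusted p = 0.936). Krt19 at E18.5 moved the other way, to r = 0.35 and rho = 0.73 (exact permutation p = 0.359 and 0.0311, adjusted p = 0.92 for r). Its r was 0.81 without the 2 farthest arrays. Krt7 at E18.5 gave r = 0.68 and rho = 0.67 (exact permutation p = 0.0409 and 0.0589, adjusted p = 0.655). Slc4a4 at P0 then gave r = -0.16 but rho = -0.76 (permutation p = 0.646 and 0.0095, adjusted p = 0.92 for r), and r = -0.90 without the 2 farthest arrays, so there r rests on those arrays. For Slc26a9 the coefficients with the full list were -0.11 at E18.5 and -0.06 at P0. With the intestinal mean in the model, the falls of Slc26a9, Cldn10 and Muc1 remained called, while the rise of Slc4a4 was not (difference 0.20, limma adjusted p = 0.267).

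Other genes of duct epithelium and its secretion were read from lists chosen for these roles. Of 21 further duct epithelium genes, 0 were called across birth in wild type by limma, beside 8.86% of all genes. An unadjusted p under 0.05 by limma was reached by 7 of the 21, against 4384 of all 17993 genes. In knockouts 3 rose and 4 fell, 7 of 21 beside 23.0% of all genes, and the list's median was -0.27 against -0.00 over all genes. Onecut1, a transcription factor of duct and progenitor cells, fell by 0.85 ± 0.19, and the adhesion protein Cdh1 fell by 0.57 ± 0.15; each call was lost in 2 of 37 other settings. The keratin Krt18 rose by 0.53 ± 0.19 and the claudin Cldn4 by 0.52 ± 0.17, calls lost in 28 of 37 and 16 of 36 other settings. Cldn7 and Anxa4 fell and Glis3 rose by less than these, calls lost in 22, 11 and 14 of 37 other settings. Without the 3 arrays rich in Tff3, 2 of the 21 genes were called in knockouts, and without the 4 arrays rich in gut markers 0 were, when 2438 and 799 of all genes were called by limma, against 4139 with all arrays.

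Of 21 genes of ion and water transport, 2 rose and 0 fell in wild type, beside 8.86% of all genes called. They were Slc12a2, the cotransporter that loads chloride into secretory cells (0.59 ± 0.13, limma adjusted p = 0.0123), and Ahcyl1, also called IRBIT, a regulator of bicarbonate transporters (0.61 ± 0.15, limma adjusted p = 0.0184). Both also rose in knockouts, by 0.40 ± 0.12 and 0.66 ± 0.14, a call lost in 8 of 37 other settings for Slc12a2 and in 1 for Ahcyl1. Slc26a6, an anion exchanger of the luminal side, fell by 0.24 ± 0.08 in knockouts, a call lost in 15 of 37 other settings. That made 3 of 21 in knockouts, beside 23.0% of all genes. The 18 transport genes not called in knockouts included the chloride channel Ano1, the potassium channel Kcnn4 and the water channels Aqp1 and Aqp5. The knockout count was 3 of 21 without the 3 arrays rich in Tff3, where 1001 of all genes were called higher and 1437 lower. It was 0 of 21 without the 4 arrays rich in gut markers, where 270 of all genes were called higher and 529 lower. With all arrays these were 2027 and 2112. In the wild-type comparison Ahcyl1 lost its call without the 3 arrays (adjusted p = 0.0516) and without E18.5 wild type 2 (0.0709), and Slc12a2 without E18.5 wild type 2 (0.0552). The median over the 21 genes was 0.02 in wild type and 0.00 in knockouts, against 0.01 and -0.00 over all genes.

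Of 6 receptors and signal genes of secretion, P2ry2, a purinergic receptor, rose in wild type by 0.47 ± 0.11 (limma adjusted p = 0.011). It was 0.14 ± 0.10 in knockouts, where 0 of the 6 were called by limma. There 1 of the 6 had an unadjusted p under 0.05 by limma, as did 6281 of all 17993 genes. The secretin receptor Sctr was among those not called. The counts of 1 and 0 of 6 stand beside 8.86% and 23.0% of all genes, and the medians were 0.14 and 0.10 against 0.01 and -0.00.

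Junction genes moved in both directions. Cldn6, a claudin of embryonic epithelia, fell by 1.89 ± 0.37 in wild type (limma adjusted p = 0.00534) and fell by 1.12 ± 0.33 in knockouts (limma adjusted p = 0.0207). It was the 1 gene of 16 called in wild type. In knockouts 2 of 16 rose, Cldn1 by 1.42 ± 0.33 and occludin (Ocln) by 0.69 ± 0.16, and 5 fell, among them Cldn8 (-0.60 ± 0.20, a call lost in 15 of 37 other settings). The counts of 1 and 7 of 16 stand beside 8.86% and 23.0% of all genes called, and the medians of -0.02 and 0.03 beside 0.01 and -0.00. The count of 7 became 3 without the 3 arrays rich in Tff3 and 2 without the 4 arrays rich in gut markers, settings in which the calls over all genes in knockouts also fell, to 2438 and 799 from 4139. The cilium list held Pkd1, Ift88, Kif3a, Rfx3, Rfx6 and Invs, not all of them parts of the cilium itself. Of these 6 genes, Kif3a fell by 0.46 ± 0.13 in wild type (limma adjusted p = 0.0373), a call lost in 12 of 37 other settings. In knockouts Pkd1 rose by 0.58 ± 0.11, Rfx3 fell by 0.63 ± 0.20 (a call lost in 14 of 37 other settings), and Invs fell by 0.35 ± 0.09. The cilium medians were -0.04 and -0.08. Those counts, 1 and 3 of 6 beside the same shares of all genes, became 0 and 2 without the 3 arrays, and 0 and 0 without the 4.

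**Figure D4:**
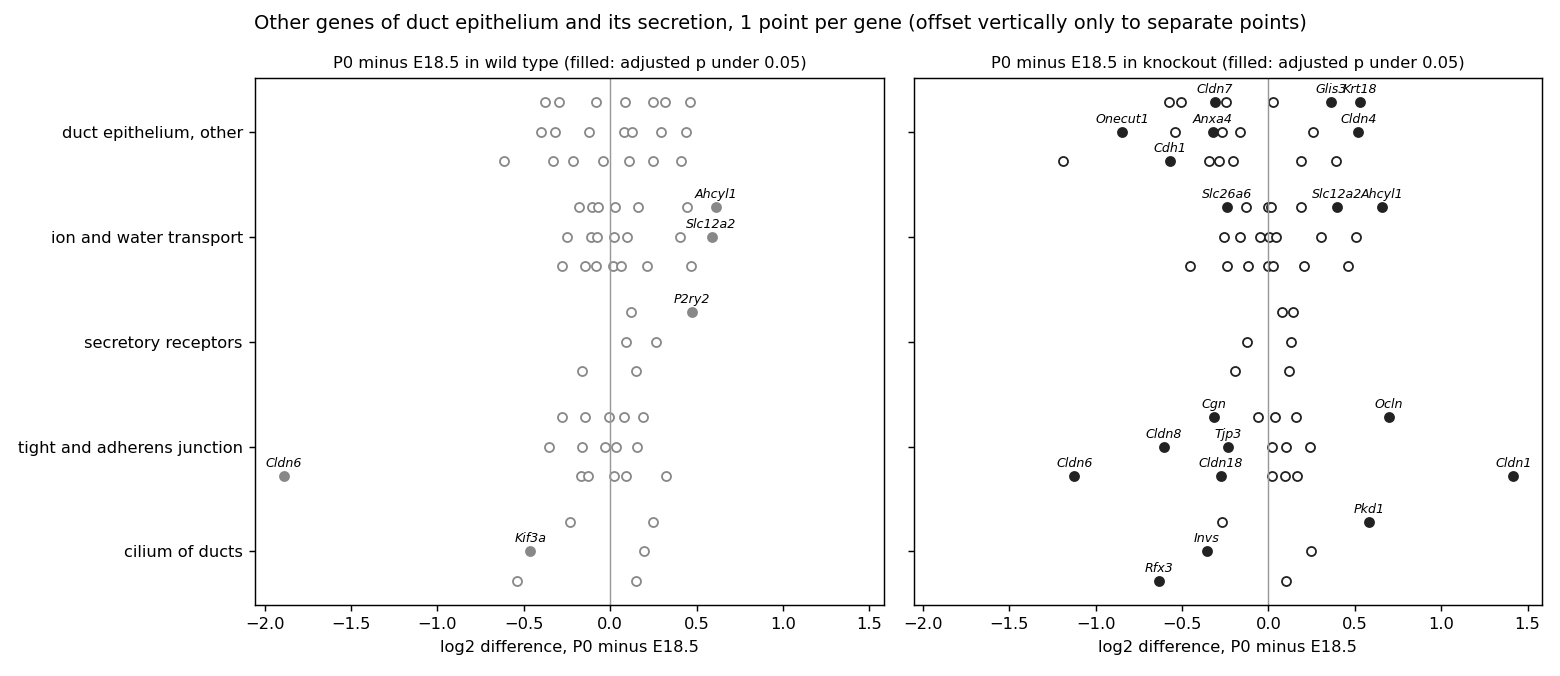
Log2 difference between P0 and E18.5 (horizontal axis) of each tested gene in 5 lists of duct epithelium and its secretion, in wild type (left) and knockouts (right). Filled, named points passed limma's adjusted p threshold of 0.05; 5 genes did so in wild type and 20 in knockouts, spread to both sides of 0.

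Of 5 genes of mucins, trefoil peptides and mucus-producing cells, 1 was called in wild type and 2 in knockouts, beside 8.86% and 23.0% of all genes, and those called were lower. Agr2, a disulfide isomerase of mucus-producing cells, fell by 4.02 ± 1.09 in wild type (limma adjusted p = 0.0292) and fell by 5.92 ± 0.98 in knockouts (limma adjusted p = 0.000467). The wild-type call was lost without E18.5 wild type 4 (-2.88, adjusted p = 0.0838) and in 6 of the other settings. Muc13, a membrane mucin of the gut, fell by 1.75 ± 0.59 in knockouts (limma adjusted p = 0.0379), a call lost without the 3 arrays rich in Tff3 (-0.79), and the difference was 0.32 without the 4 arrays rich in gut markers. The trefoil peptides were not called: Tff2 was -0.36 in wild type and -0.79 in knockouts (limma adjusted p = 0.581 and 0.0873), and Tff3 was -1.92 and -3.45 (limma adjusted p = 0.531 and 0.117). Intestinal Vil1 was called lower in both comparisons, at -1.02 ± 0.20 and -1.49 ± 0.18. The medians of the 5 genes were -0.42 and -1.75, against 0.01 and -0.00 over all genes. Between genotypes, no gene of the duct, transport, receptor, junction, cilium and mucus lists was called at either age. By limma, 6 of these 75 genes had an unadjusted p under 0.05 at E18.5 and 4 did at P0, against 980 and 1576 of all 17993 genes.

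The genes whose values were most like each of the 7 were found by the correlation of deviations from the group means over the 20 arrays. Muc1 was closest to Kdelr2 (0.88), Sec31a (0.86) and Sec61a1 (0.85). Slc26a9 was closest to Kctd14 (0.87), Hsph1 (0.86) and Wdr78 (0.82), and Cldn10 to Sar1b (0.79), Idh3a (0.78) and Mif-ps (0.75). Car2 was closest to Tspan8 (0.89), Aim2 (0.88) and Hsd17b2 (0.87), and Tspan8 read 10.17 to 11.02 on the 3 arrays rich in Tff3 against 7.41 to 8.51 on the other 17. Krt19 was closest to Car8 (0.83), Atp5pb-ps (0.82) and Mrpl19 (0.82), Krt7 to Kif22 (0.88), Ntan1 (0.85) and Fam122b (0.85), and Slc4a4 to Slc25a33 (0.79), Ptgds (0.79) and Tmod2 (0.78). The arrays share extraction and normalisation, and these coefficients are given as a description.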

How the data were processed

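Pancreas RNA was extracted with a lipid tissue kit, amplified and biotin-labelled per the labels' protocols, and hybridised to Affymetrix mouse arrays. The deposited values are log2 signals per probe set, which the authors made with RMA in Affymetrix Expression Console 1.4.1.46, per the submitters' processing notes. They run from 2.17 to a ceiling of 19.932, at which 261 to 278 probe sets per array stand, none of a member. The array's genome build is not given in the sources used here. Of 65956 probe sets, 30604 carried 1 symbol, 2146 several and 33206 none. A gene with several single-symbol probe sets was read from the one of highest mean signal.

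Genes that exceeded the median of 4 or more of the 20 arrays entered the test with limma 3.58.1 in R 4.3.3. The model held all 20 arrays and 1 term per group (16 residual degrees of freedom, 17.9 after moderation). Tests were two-sided. The 5 comparisons were knockout minus wild type at each age, P0 minus E18.5 in each genotype, and their difference, adjusted by Benjamini-Hochberg within each. Errors are SE. The fit was tested on simulated data. The number of arrays limits the precision.

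The members and the 15 gene lists were chosen with earlier results of these data known. Named were all members, up to 4 genes per list (called genes with the largest change, otherwise the smallest p), and the 3 tested genes most like each member. Genes named beyond this rule, such as Nr5a2, Tff2, Tspan8, Cdh17, Cldn7, Anxa4, Glis3, Ano1, Kcnn4, Aqp1, Aqp5 and Sctr, were chosen after their values were seen. Correlations used Python 3.11.15 and scipy 1.17.1, exact at E18.5 and with 100000 permutations at P0.

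Alternatives were no filter and a stricter one, quantile normalisation, centring on array medians, trend and robust moderation, array weights, the compared groups alone, a replicate block, the intestinal mean as a covariate, averaged probe sets, and dropping arrays singly. Alternatives added after seeing the data were stomach, mesothelium and liver means as covariates, a fit without the 93 tested genes at the ceiling on any array, fits without 3, 4 or 2 arrays rich in gut or muscle markers, and relations to mesothelium, Lgals4, Cdh17 and Tff3.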

Additional observations from a re-analysis of the deposited data

Results flagged for a closer look

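Cftr on P0 wild type 2 read 4.27, apart from the other 4 P0 wild-type arrays, the nearest of which read 4.12. The gap was 0.773 of the group's range. It was the 1 group picked out among 32 examined, where chance picks about 1 in 20, and the value lies below the array median.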

How the results depend on the processing

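The falls of Slc26a9 and Cldn10 in both genotypes and of Muc1 in knockouts kept their direction and stayed past the threshold in 37 of 37 other settings, and the rise of Slc4a4 in knockouts lost its call in 13 of 37. Some settings leave a member's difference as it was and can change only its p-value. They are the filters, trend and robust moderation, the compared groups alone, and the fit without genes at the ceiling. Averaged probe sets, with 1 probe set per member, and leaving out arrays of groups not compared do so too. Replicate numbers were not used as a block in the main fit. Same-numbered arrays had deviations correlating at -0.03 to 0.24, over 0.1 for 5 of 9 pairs. Arrays of different number were not compared in this way, so whether the numbers pair the samples was not tested. With the replicate number as a block, the Slc4a4 rise was 0.282 (limma adjusted p = 0.0594), and no other call among the 7 genes changed. Values that changed sign were all uncalled, apart from Muc13 in knockouts (0.322 without the 4 arrays rich in gut markers), and the cause was not tested. For Slc26a9, knockout minus wild type at E18.5 was -0.193 with the stomach mean, -0.066 with the mesothelium mean, -0.303 without the 3 arrays rich in Tff3, -0.586 without the 4 arrays, and -0.152 to 0.404 leaving out single arrays. At P0 it was -0.145 for Krt19 without the 2 muscle-rich arrays and -0.01 with the liver mean, and leaving out single arrays gave -0.145 to 0.182 for Krt19 and -0.003 to 0.189 for Krt7. Between ages in wild type, single arrays moved Krt19 from -0.025 to 0.355 and Car2 from -0.63 to 0.148, and Car2 was 0.148 without the 3 or the 4 arrays and 0.011 with the liver mean. In knockouts Krt19 was 0.121 and 0.146, and Car2 0.05 and 0.092, without the 3 and the 4 arrays. The change of the genotype difference for Slc4a4 was -0.024 with array weights, -0.006 with the intestinal mean, -0.031 with the stomach mean, -0.004 with the liver mean, -0.02 without the muscle-rich arrays, and -0.022 to 0.094 leaving out single arrays. Single arrays moved that change from -0.171 to 0.02 for Krt7 and from -0.057 to 0.673 for Slc26a9. Without Vil1 and Krt20, the coefficients with the intestinal mean were -0.00 for Krt19 and -0.12 for Krt7 at P0, and 0.04 at E18.5 and 0.10 at P0 for Slc26a9. Counts over all genes were less steady: 2 at P0 between genotypes became 45 when P0 knockout 1 was left out, and 40 and 11 when wild types 1 and 3 of that age were. In wild type across birth, 1594 became 670 without E18.5 wild type 2, 743 without E18.5 wild type 1 and 1008 with the compared groups alone. In knockouts 4139 became 1807 with the intestinal mean as a covariate. At E18.5 between genotypes 2 became 1 to 5, and the change of the genotype difference went from 0 to 34 without P0 wild type 1, none of them among the 7 genes. Signal limits Cftr, which is below the array median on all 20 arrays.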
